A study of Mus musculus with 9 samples.

Results

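Of the 2810 genes listed in at least 1 of 3 comparisons of endothelial progenitor cells (EPCs), 123 were listed in all 3, and the 121 of them outside chromosomes X and Y are described here by the order of their group means. The cells were cultured Sca-1+/CD31+ bone marrow EPCs of C57BL/6J mice, from males (M-EPCs), females (F-EPCs) and ovariectomized females (OVX-EPCs), with 3 libraries per group. All mice were 8 weeks old, and the OVX mice had lost their ovaries at around 35 days of age. In every group lineage-negative marrow was sorted magnetically and grown on gelatin in endothelial growth medium without added estrogen. The methods speak of biological replicates and independent experiments, but neither they nor the labels say what a sequenced library of a group came from, such as a separate animal or culture, so part of the spread between them may be technical.

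Each gene was placed by the order of its 3 means of normalized counts, that is, reads scaled by the authors' size factor of the library, which differs from comparison to comparison. M-EPC and F-EPC values came from the comparison of those groups. OVX-EPC values came from the comparison with F-EPCs, rescaled by the ratio of the F-EPC means, and all errors are SDs over 3 libraries. The genes were selected on these same libraries, since in each of the 3 comparisons a listed gene had passed the authors' screen for an FDR and a 2-fold change. The group differences below are therefore a description with no test. By this choice each adjacent pair of means differed by about 2-fold or more. The libraries held between 140132 and 321010 reads on these genes and between 454298 and 2070442 reads on all genes of a comparison, and their whole depth is unknown. A fold against a group with 0 reads in every library was taken against a floor of 3 reads in each, and no fold is given against a group with 9 reads or fewer in all. The floor covers counting error only.

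Each of the 121 genes kept its 3 groups apart without overlap, which the selection gives. The libraries did not overlap for 98.3% of all genes listed for M-EPCs with F-EPCs. The share was 99.2% for M-EPCs with OVX-EPCs and 98.9% for F-EPCs with OVX-EPCs. Limma called (absolute log2 difference of at least 1, adjusted p-value under 0.05) 120 of the 121 genes for M-EPCs with F-EPCs (97.6% of all genes listed). It called 121 for M-EPCs with OVX-EPCs (98.8%) and 120 for F-EPCs with OVX-EPCs (98.2%). Prrx1 was not called in the first comparison, but was called there with the replicate number as a block and by edgeR and DESeq2. F830208F22Rik was not called in the last, nor there by edgeR or with the block, but was called there by DESeq2 and with a pseudocount of 0.1. Nothing is read from these counts about the genes.

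Of the 6 possible orders, 5 were seen. M-EPC > OVX-EPC > F-EPC held 51 genes (42.1%), OVX-EPC > F-EPC > M-EPC held 38 (31.4%) and F-EPC > OVX-EPC > M-EPC held 22 (18.2%). The orders OVX-EPC > M-EPC > F-EPC and F-EPC > M-EPC > OVX-EPC held 7 genes (5.79%) and 3 genes (2.48%). No gene followed the order M-EPC > F-EPC > OVX-EPC. OVX-EPCs were thus the middle group for 73 genes, the highest for 45 and the lowest for 3. Among the 1136 autosomal genes listed in exactly 2 comparisons, these 5 orders held 24.1%, 31.6%, 15.5%, 12.9% and 5.02%, and M-EPC > F-EPC > OVX-EPC held 10.9% (124 genes). In those genes 1 pair of groups had not passed the screen, and the order within that pair can lie within the spread of the libraries. In 4 of them, Des, H19, Actc1 and Wnt7b, M-EPCs and F-EPCs both had 0 reads, and the order of these groups is arbitrary.

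**Figure D1:**
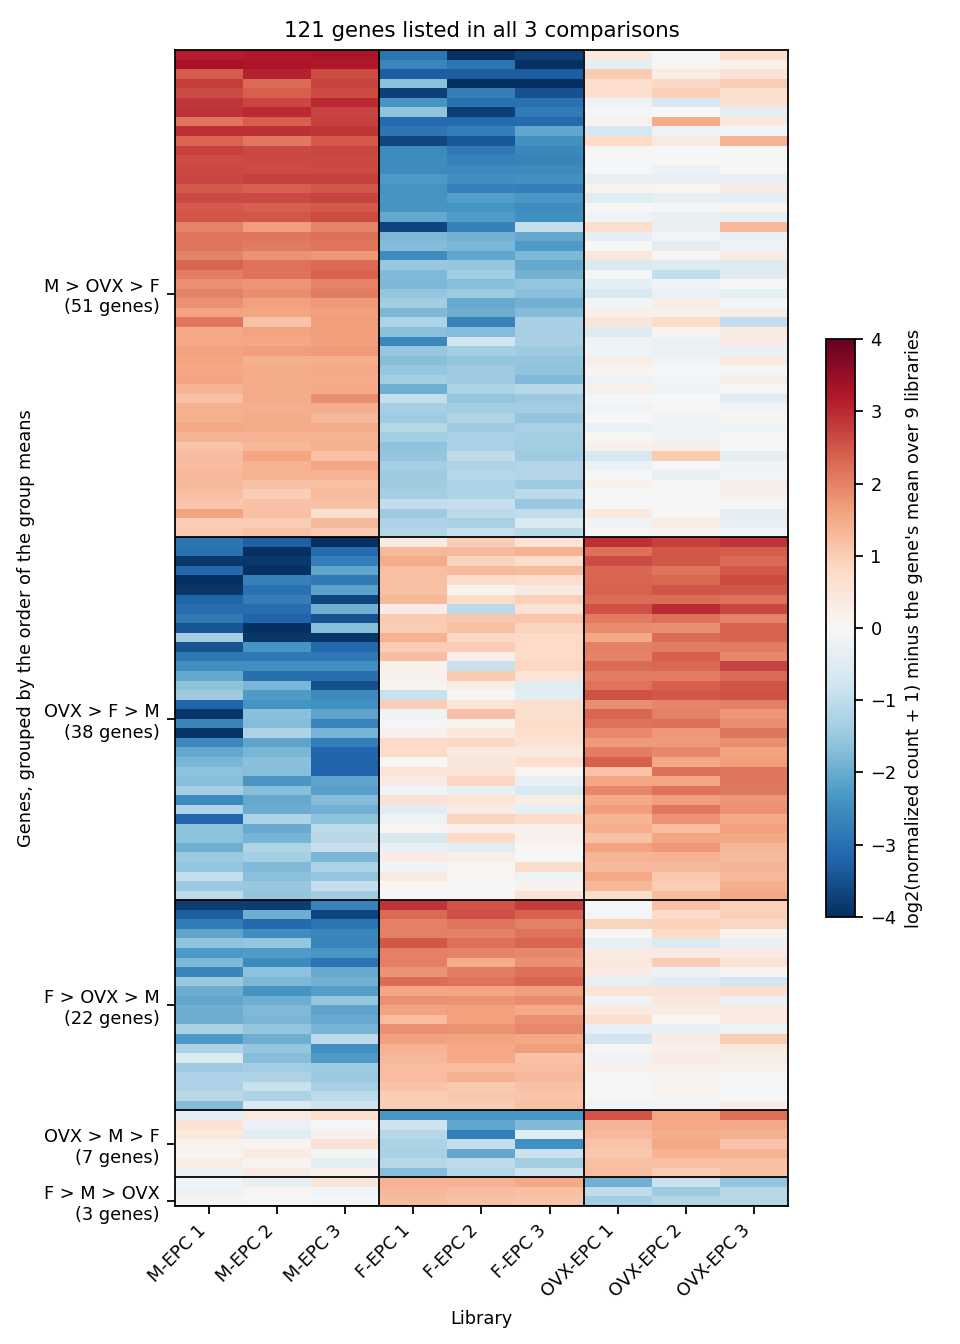
Rows are the 121 genes, grouped by the order of their 3 group means, and columns are the 9 libraries. Colour gives log2 of the normalized count plus 1, centred on the mean of the gene over the 9 libraries and clipped at 4 in either direction, and the blocks of 51, 38, 22, 7 and 3 genes each keep their 3 groups apart.

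The orders differed in level as well as in their genes. Genes of the order M-EPC > OVX-EPC > F-EPC had a median of 396 normalized counts over the 9 libraries, and 24 of the 51 had an M-EPC mean above 1000. Genes of the order OVX-EPC > F-EPC > M-EPC were low, with a median of 67.0, and 11 of the 38 had 9 reads or fewer in the M-EPC libraries together. The 51 genes that were highest in M-EPCs took 93.7% to 94.1% of the counts on the 121 genes in M-EPC libraries, 41.1% to 42.4% in OVX-EPC libraries and 7.41% to 7.56% in F-EPC libraries. The 22 genes that were highest in F-EPCs with OVX-EPCs in the middle took 5.30% to 5.67%, 48.9% to 50.1% and 89.4% to 89.6% in the same groups. These shares weigh the most abundant genes most, Cd74 in the first set and Spp1 in the second.

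Genes of the order M-EPC > OVX-EPC > F-EPC included MHC class II genes and genes that interferon-γ induces. MHC class II molecules present peptides from endosomes to CD4+ T cells. They consist of an α and a β chain that assemble with the invariant chain Cd74, and their transcription depends on the coactivator Ciita, which interferon-γ induces. In RNA from a whole culture fewer cells of a type and less RNA per cell cannot be told apart.

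The order held 6 MHC class II genes, with M-EPC means between 2.89 and 6.56 times the OVX-EPC means and OVX-EPC means between 2.90 and 6.91 times the F-EPC means. Cd74, the most abundant of the 51 genes, had 78769, 76224 and 79360.2 normalized counts in M-EPC libraries, 14241, 13649.6 and 15501 in OVX-EPC libraries and 2803, 2769.5 and 2518 in F-EPC libraries. M-EPCs stood 5.401-fold above OVX-EPCs and 29.0-fold above F-EPCs, and the spread within each group was small beside these steps. H2-Aa, the α chain of I-A, lies on chromosome 17 from 34282744 to 34287823 of GRCm38. It had 31384, 31999.7 and 32313 normalized counts in M-EPC libraries, 5175, 5123 and 5074 in OVX-EPC libraries and 904, 790.2 and 807 in F-EPC libraries. H2-Ab1, the β chain of the same molecule, lies 13325 bases away and had means of 22416 ± 647 (SD, n = 3) in M-EPCs, 3419.5 ± 111 in OVX-EPCs and 558 ± 66.5 in F-EPCs. H2-Eb1, the β chain of I-E, had means of 19592 ± 129.7, 2991 ± 288 and 543 ± 6.26 in the same groups. The 3 chain genes stepped down by like amounts, between 6.23 and 6.56 times from M-EPCs to OVX-EPCs and between 5.51 and 6.15 times from OVX-EPCs to F-EPCs. Ciita had means of 5154 ± 174, 1072 ± 109.6 and 155 ± 20.5. H2-DMa, a chain of the chaperone that loads peptides, had means of 5283 ± 153, 1829.9 ± 76.9 and 631 ± 34.1, with the smallest steps of the 6 genes, 2.89 and 2.90-fold. Of the 8 MHC class II genes with values in all 9 libraries, 7 had this order, among them H2-DMb1 with means of 3396, 1234 and 650.4. The exception was H2-Ob, an inhibitory chaperone of B cells, with means of 6.46, 52.9 and 17.4.

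Guanylate-binding proteins and immunity-related GTPases, which interferon-γ induces and which attack the vacuoles of intracellular microbes, gave 7 genes of this order. Their M-EPC means were between 2.65 and 8.22 times the OVX-EPC means, and their OVX-EPC means between 2.22 and 4.19 times the F-EPC means. Gbp2 had 20508, 20866 and 21588 normalized counts in M-EPC libraries, 2500.0, 2653 and 2546 in OVX-EPC libraries and 651, 721 and 666 in F-EPC libraries. OVX-EPCs lay nearer to F-EPCs for this gene, 8.18-fold below M-EPCs and 3.78-fold above F-EPCs. Gbp5, 98258 bases from Gbp2 on chromosome 3, had means of 6313 ± 277, 912 ± 57.7 and 228 ± 32.4, and Gbp3 lies between them with means of 3601 ± 112, 963 ± 45.5 and 416 ± 23.1. Gbp4 and Gbp8 overlap on the same strand of chromosome 5, so that reads of these paralogs may be split between them. Gbp4 had means of 5574 ± 169, 678 ± 3.12 and 162 ± 9.79, and Gbp8 had 4182 ± 75.9, 1578 ± 39.2 and 385 ± 29.6. The 5 Gbp genes thus all had F-EPCs lowest. Iigp1 had means of 19248 ± 508 in M-EPCs, 3631 ± 325 in OVX-EPCs and 1147 ± 101 in F-EPCs. Tgtp2, a GTPase with a near-identical paralog, had means of 5652 ± 387, 1098 ± 138 and 494 ± 42.2, and stood 5.15-fold below M-EPCs and 2.22-fold above F-EPCs in OVX-EPCs.

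Irf1, the transcription factor that carries the interferon-γ signal to many of these genes, had 7631, 7817 and 7868 normalized counts in M-EPC libraries, 3114, 2674 and 3091 in OVX-EPC libraries and 1166, 1209 and 1169 in F-EPC libraries. Its folds were 2.63 from OVX-EPCs to M-EPCs and 2.505 from F-EPCs to OVX-EPCs, below those of the MHC class II genes. Gm17334 overlaps Irf1 on the opposite strand and had a fold of 7.30 between M-EPCs and F-EPCs. The kit kept strand, but whether counting used it is not stated in the sources used here, and reads of the pair may not have been told apart. The chemokines Cxcl9, Cxcl10 and Ccl5 were also of this order. Cxcl9, which attracts activated T cells through Cxcr3, had 594, 629.6 and 520.1 normalized counts in M-EPC libraries, 76.6, 79.3 and 61.5 in OVX-EPC libraries and 25.2, 4.84 and 10.4 in F-EPC libraries. Cxcl10, another Cxcr3 ligand 18559 bases from Cxcl9, had means of 627 ± 71.2, 97.5 ± 30.6 and 42.2 ± 8.04. Ccl5, a chemokine for T cells and monocytes, had means of 1363 ± 69.1, 194 ± 3.80 and 88.7 ± 17.7. For all 3 the step from OVX-EPCs to M-EPCs, between 6.43 and 8.02-fold, was larger than that from F-EPCs to OVX-EPCs, between 2.19 and 5.37-fold. For Cxcl9 the F-EPC mean depends much on the library at 25.2, so which of its steps was larger is uncertain.

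Of 27 genes of the interferon-γ response, 24 had values in all 9 libraries, and 22 of them followed M-EPC > OVX-EPC > F-EPC, 10 of these being among the 121. The exceptions were Gbp9, with means of 4325 in M-EPCs, 1486 in F-EPCs and 1229.5 in OVX-EPCs, and Irgm1, with 11211, 3530.5 and 3473. The type I interferon genes, induced through the related interferon-α/β receptor, were ordered otherwise. Of 23 such genes, 19 had values in all 9 libraries, of which 9 followed M-EPC > F-EPC > OVX-EPC, 9 followed F-EPC > M-EPC > OVX-EPC and Oasl1 followed F-EPC > OVX-EPC > M-EPC. Among genes of exactly 2 comparisons with a mean over 50 in every group and a log2 difference under 1 in the third pair, Ifit2 lay closest to 1, with means of 10172 in M-EPCs, 5006 in F-EPCs and 2508 in OVX-EPCs and a log2 difference of 0.997 between the female groups. It has the order that none of the 121 genes had. A further 22, 22 and 12 genes exceeded a log2 difference of 1 in the pair of F-EPCs and OVX-EPCs, of M-EPCs and F-EPCs or of M-EPCs and OVX-EPCs without being listed there.

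Promoter sequences were read from RefSeq on GRCm38.p6, from 250 bases before to 50 after each start site, and were held for 88 of the 121 genes, among them 35 of the 51 of this order. Some genes have several starts, whose windows can share bases. The core of the interferon-stimulated response element, GAAANNGAA, which IRF factors bind, was searched on both strands and stood in 13 of 44 promoters of this order (29.5%), against 8.52% of all 31396 promoters. It stood in 2 of 39 promoters (5.13%) of the order OVX-EPC > F-EPC > M-EPC and in 1 of 17 (5.88%) of the order F-EPC > OVX-EPC > M-EPC. The GAS element, TTCNNNGAA, known from interferon-γ-induced promoters, whose matches can overlap those of the core, stood in 11 of 44 promoters (25%), against 8.35% of all, in 5 of 39 (12.8%) in OVX-EPC > F-EPC > M-EPC and in 0 of 17 in F-EPC > OVX-EPC > M-EPC. In the smallest orders, OVX-EPC > M-EPC > F-EPC and F-EPC > M-EPC > OVX-EPC, either element stood in 0 of 9 and 1 of 2 promoters, the latter that of Chil3. Gbp2, Gbp3, Gbp5, Tgtp2, Cxcl9, Cxcl10, Serpina3f, Asgr2, Calhm6, Gpr55, Klrk1 and Pik3ip1 held the core, and Irf1, Gbp5, Tgtp2, Serpina3f, Serpina3g, Casp12, Fgl2, Gm35551, Gpr55 and Phactr1 the GAS element. The Y box CTGATTGG, which NF-Y binds in MHC class II promoters, was chosen after values were seen and stood in 6 of 44 promoters (13.6%), against 4.03% of all, 2 of 17 (11.8%) in the order F-EPC > OVX-EPC > M-EPC and 3 of 39 (7.69%) in OVX-EPC > F-EPC > M-EPC. Its 6 genes were H2-Aa, H2-Eb1, Cxcl9, Cxcl10, Calhm6 and Fam13a, and of the MHC class II genes of the 121 only H2-Aa, H2-Eb1 and H2-DMa had a promoter to search, with none held for Cd74, Ciita and H2-Ab1. The estrogen half-sites GGTCA and TGACC 3 bases apart were in no promoter of the 88 genes, and with 0.0733% of all promoters holding them, so few promoters would seldom show a match. The promoters below show what these matches look like in genes described above, with the match in capitals and each read 5′ to 3′ on the strand of its gene. They are Gbp2 (chr3:142620413-142620712, plus strand) and Cxcl10 (chr5:92348840-92349139, minus strand) with the core, Irf1 (chr11:53769764-53770063, plus strand) with the GAS element, and H2-Aa (chr17:34287774-34288073, minus strand) and H2-Eb1 (chr17:34305617-34305916, plus strand) with the Y box.
Gbp2: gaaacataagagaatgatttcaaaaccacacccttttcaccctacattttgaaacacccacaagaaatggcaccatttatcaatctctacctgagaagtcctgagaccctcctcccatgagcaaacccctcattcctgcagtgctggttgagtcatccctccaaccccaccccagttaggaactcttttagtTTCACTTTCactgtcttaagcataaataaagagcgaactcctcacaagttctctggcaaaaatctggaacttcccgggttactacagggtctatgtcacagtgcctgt
Cxcl10: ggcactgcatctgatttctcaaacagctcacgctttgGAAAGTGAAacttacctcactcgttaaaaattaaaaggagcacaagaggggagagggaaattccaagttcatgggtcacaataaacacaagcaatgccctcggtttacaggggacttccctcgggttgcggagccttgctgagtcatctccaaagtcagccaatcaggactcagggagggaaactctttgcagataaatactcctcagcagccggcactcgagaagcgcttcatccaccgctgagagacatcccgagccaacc
Irf1: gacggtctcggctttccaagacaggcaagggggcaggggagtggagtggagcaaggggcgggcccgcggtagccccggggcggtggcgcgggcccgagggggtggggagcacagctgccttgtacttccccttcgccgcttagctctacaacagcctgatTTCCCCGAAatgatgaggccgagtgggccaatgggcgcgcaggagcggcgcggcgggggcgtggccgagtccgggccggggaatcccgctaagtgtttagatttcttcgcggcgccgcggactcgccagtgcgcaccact
H2-Aa: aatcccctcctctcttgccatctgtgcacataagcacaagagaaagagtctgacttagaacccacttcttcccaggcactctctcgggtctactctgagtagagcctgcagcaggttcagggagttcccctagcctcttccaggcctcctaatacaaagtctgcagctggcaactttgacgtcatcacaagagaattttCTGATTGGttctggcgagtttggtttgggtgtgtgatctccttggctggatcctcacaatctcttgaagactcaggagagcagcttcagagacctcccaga
H2-Eb1: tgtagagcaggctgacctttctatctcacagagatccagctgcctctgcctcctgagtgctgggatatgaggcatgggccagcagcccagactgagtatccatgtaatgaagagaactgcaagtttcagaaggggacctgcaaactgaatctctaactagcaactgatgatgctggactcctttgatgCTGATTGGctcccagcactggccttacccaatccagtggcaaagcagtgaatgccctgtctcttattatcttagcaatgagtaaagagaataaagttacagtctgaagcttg
The matches lay 58 bases before the start site in Gbp2, 213 in Cxcl10, 90 in Irf1, 51 in H2-Aa and 62 in H2-Eb1. A match describes letters only, and no binding was measured.

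Other genes of this order were less alike in function. Serpina3f and Serpina3g, paralogous protease inhibitors 15116 bases apart, had large steps between M-EPCs and OVX-EPCs, of 9.78 and 9.26-fold. Serpina3f had 1746, 1705 and 1651 normalized counts in M-EPC libraries, 135, 187 and 199 in OVX-EPC libraries and 28.3, 23.2 and 9.48 in F-EPC libraries. Tlr12, an endosomal Toll-like receptor for a parasite protein, had 673, 701 and 736 in M-EPC libraries, 98.3, 72.9 and 118 in OVX-EPC libraries and 9.09, 3.87 and 4.74 in F-EPC libraries. Its fold of 119 between M-EPCs and F-EPCs was the largest of the 46 genes of this order for which a fold could be given. Fgl2, a fibrinogen-like protein of immune cells, had means of 13913 ± 271, 4893 ± 448 and 1972 ± 46.0. C4b, a complement component, had means of 942 ± 22.9, 191 ± 22.2 and 56.1 ± 11.1.

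For some genes of this order OVX-EPCs lay nearer to M-EPCs. Dnase1l3, a secreted DNase that clears DNA of dying cells, had 907, 775 and 906 normalized counts in M-EPC libraries, 235, 285 and 234 in OVX-EPC libraries and 10.1, 21.3 and 12.3 in F-EPC libraries, with steps of 3.43 and 17.3-fold. Adcy4, an adenylate cyclase, had means of 249 ± 29.2, 94.4 ± 34.4 and 5.14 ± 2.96, with steps of 2.64 and 18.3-fold. H2-M2, a class Ib MHC gene, had 129, 90.7 and 124 in M-EPC libraries and 29.3, 33.2 and 36.9 in OVX-EPC libraries, and 5 reads in all in F-EPC libraries. Gm35551 and Gm49967 had 0 reads in every F-EPC library and were at least 22.3-fold and 15.6-fold higher in M-EPCs. They were at least 4.93-fold and 4.78-fold higher in OVX-EPCs. Mb21d2, with OVX-EPCs about midway at 48.2% of the log2 span, had means of 110.0 ± 11.5 in M-EPCs and 14.7 ± 7.08 in OVX-EPCs, and 4 reads in all in F-EPCs. The surface receptors Mgl2, Asgr2, Klrk1, Fcrl6 and Gpr55, the enzymes Hpgd, Kynu, Vnn3, Casp12 and Plaat3, the genes Mex3b, Calhm6, Slco3a1, Myh10, Plxdc2, Pik3ip1, Fam13a, Phactr1 and Mb21d2 and the little described Gm36043, AW112010, F830208F22Rik and BC023105 complete the 51. Their M-EPC means lay at 46.7 to 2566 normalized counts and their F-EPC means at 1.31 to 424.

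**Figure D2:**
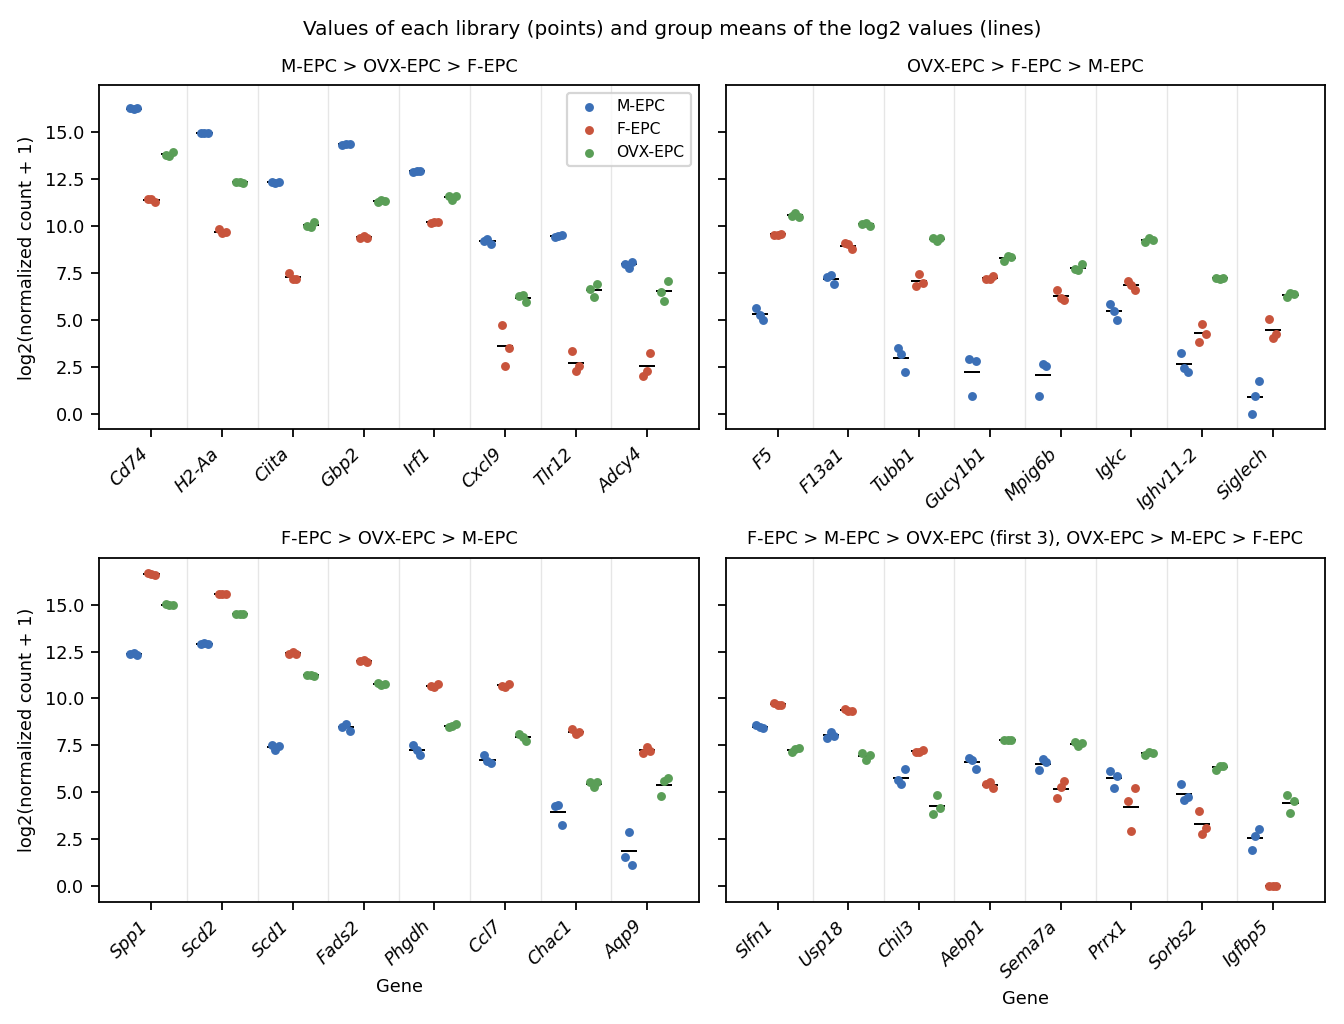
Points are libraries and short lines the group means of log2 of the normalized count plus 1, the vertical axis, for 8 genes in each of 4 panels, which hold the orders named above them. The groups of each gene do not overlap, and F-EPC libraries of Igfbp5 all sit at 0.

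Genes of the order OVX-EPC > F-EPC > M-EPC included genes of megakaryocytes and platelets and genes of B cells. Megakaryocytes are the large marrow cells that shed platelets. Platelets adhere through glycoprotein receptors, release granules and offer the surface on which coagulation factors act. The 3 coagulation factors F5, F13a1 and F10 had OVX-EPC means between 6.55 and 38.5 times the M-EPC means, and 13 further genes of the 38 are known from platelets.

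F5, the cofactor of factor Xa, lies on chromosome 1 from 164151838 to 164220277 and had 1494, 1634 and 1424 normalized counts in OVX-EPC libraries, 742, 745 and 767 in F-EPC libraries and 49.5, 37.7 and 31.1 in M-EPC libraries. OVX-EPCs stood 2.02-fold above F-EPCs, at the edge of the screen, while F-EPCs stood 19.1-fold above M-EPCs. F13a1, the transglutaminase subunit that cross-links fibrin, had means of 1095 ± 57.6 in OVX-EPCs, 499 ± 53.8 in F-EPCs and 148 ± 25.7 in M-EPCs. F10, the protease that F5 assists, had means of 289 ± 47.7, 123 ± 23.0 and 44.1 ± 13.01.

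Tubb1, the β1-tubulin of the platelet marginal band, had 661, 583 and 647 normalized counts in OVX-EPC libraries, 111, 171 and 122 in F-EPC libraries and 10.5, 8.08 and 3.59 in M-EPC libraries. The female groups differed by 4.67-fold, and OVX-EPCs stood 85.4-fold above M-EPCs. Gucy1b1, a subunit of the guanylate cyclase that senses nitric oxide, had 279.9, 337 and 322 in OVX-EPC libraries, 146, 146 and 159 in F-EPC libraries and 6.66, 0.898 and 5.98 in M-EPC libraries. Here the female groups lay close, 2.08-fold apart, and F-EPCs stood 33.4-fold above M-EPCs. Mpig6b, an inhibitory receptor of megakaryocytes, had means of 219 ± 26.6, 76.7 ± 15.0 and 3.71 ± 2.41 in OVX-EPCs, F-EPCs and M-EPCs. Gp9, a subunit of the von Willebrand factor receptor, had means of 255 ± 51.4, 125 ± 14.6 and 8.46 ± 8.27. The serotonin transporter Slc6a4 had means of 414 ± 46.5, 201 ± 7.92 and 9.53 ± 9.15, and the platelet lipoxygenase Alox12 had 768 ± 18.3, 358 ± 32.8 and 23.8 ± 9.90. The other platelet genes were the podoplanin receptor Clec1b, the thromboxane receptor Tbxa2r, Nrgn, Clu, Grap2, Myl9 and Slfn14, with OVX-EPC means at 28.2 to 557. Nrgn, neurogranin, had means of 557 ± 31.7, 242 ± 41.6 and 22.8 ± 6.59, and Clu, the granule chaperone clusterin, had 485 ± 10.04, 213 ± 44.3 and 10.7 ± 3.60. Myl9, a myosin light chain, had means of 28.2 ± 5.16 in OVX-EPCs and 5.17 ± 3.30 in F-EPCs. Tbxa2r, Slfn14 and Myl9 had 5, 1 and 0 reads in all in M-EPC libraries.

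Of 31 genes of platelet function, a list written after values were seen, 23 had values in all 9 libraries, and 22 of them had the order OVX-EPC > F-EPC > M-EPC, 11 of these being among the 121. The exception, P2ry1, an ADP receptor, had means of 276 in F-EPCs, 238 in OVX-EPCs and 90.9 in M-EPCs. Markers of megakaryocytes and platelets, with Gp9 of the 121 genes among them, were summed as well. Of 10 such markers, 9 had values in all 9 libraries, and their summed level lay at 10677 to 11302 normalized counts in OVX-EPC libraries, at 8597 to 8816 in F-EPC libraries and at 1151 to 1225 in M-EPC libraries. All 9 were listed in both comparisons with M-EPCs, so the distance of the sum from M-EPCs follows from the selection. Pf4 had its highest mean in F-EPCs, 3527 against 2989 in OVX-EPCs, and the other 8 followed OVX-EPC > F-EPC > M-EPC. None of the 9 was at 0 in a female library. The part of such cells in these results was not tested. The GATA site AGATAA, which the megakaryocyte factor Gata1 can bind, stood in 9 of 39 promoters of this order (23.1%), against 11.2% of all promoters and 15.9% (7 of 44) in the order M-EPC > OVX-EPC > F-EPC. It stood in 1 of 17, 1 of 9 and 1 of 2 promoters of the remaining orders. Of the genes with it in this order, Clec1b and Mpig6b are platelet genes, and Ablim1, Aldh1a1, Cracd, Ctla2a, Ppp1r16b and Sec14l5 were not grouped with them. The ETS site CCGGAAGT stood in none of the promoters held for 88 of the 121 genes and in 3.95% of all promoters. Mpig6b (chr17:35066135-35066434, minus strand) is shown as a platelet gene with the GATA site, in capitals and in reverse on the strand printed, 88 bases before its start.
Mpig6b: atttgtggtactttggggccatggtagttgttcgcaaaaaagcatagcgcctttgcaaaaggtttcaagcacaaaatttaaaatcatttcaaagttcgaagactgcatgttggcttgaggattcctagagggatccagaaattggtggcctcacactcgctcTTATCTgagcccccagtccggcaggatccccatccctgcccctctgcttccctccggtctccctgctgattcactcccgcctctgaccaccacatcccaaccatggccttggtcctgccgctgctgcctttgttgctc
The letters alone do not show that a factor binds there.

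Igkc, the constant region of the immunoglobulin κ chain, had 563, 646 and 621 normalized counts in OVX-EPC libraries, 133, 116 and 93.8 in F-EPC libraries and 57.1, 44.0 and 31.1 in M-EPC libraries. The larger step lay between the female groups, 5.33-fold, with 2.60-fold from M-EPCs to F-EPCs. Ighv11-2, a heavy chain variable segment, had 151, 145 and 152 in OVX-EPC libraries, 13.1, 26.1 and 18.01 in F-EPC libraries and 8.57, 4.49 and 3.59 in M-EPC libraries. Its 7.82-fold was the largest step between the female groups in the 38 genes. Igkv14-126, a κ variable segment, had means of 199 ± 25.01, 37.2 ± 9.43 and 7.90 ± 4.83. Variable segments belong to large families, and their counts are uncertain where reads fit several members. Fcmr, a receptor of IgM, had means of 113 ± 15.6, 38.8 ± 6.59 and 6.60 ± 5.38, and Siglecg, an inhibitory lectin of B cells, had 31.9 ± 7.61, 11.4 ± 4.92 and 1.33 ± 0.516. Of 18 B-cell genes, a list written after values were seen, 11 had values in all 9 libraries and 10 of these had this order, with Ighm the exception at means of 1989.6 in OVX-EPCs, 1801 in M-EPCs and 561 in F-EPCs. Of 10 lymphocyte markers, 5 had values in all 9 libraries, all of this order, with a summed level at 679.8 to 714 in OVX-EPC libraries, at 349 to 404 in F-EPC libraries and at 172 to 214 in M-EPC libraries. Cd3e was at 0 in an M-EPC library, and the part of lymphocytes in these results was not tested. Siglech, a lectin of plasmacytoid dendritic cells, had means of 80.3 ± 4.96 in OVX-EPCs and 21.9 ± 9.07 in F-EPCs and 3 reads in all in M-EPCs.

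Among the remaining genes of this order, Plxna4, a semaphorin receptor, had means of 425 ± 57.5, 169 ± 6.57 and 53.5 ± 18.7. Cdkn1c, an imprinted inhibitor of the cell cycle, had means of 382 ± 61.5, 93.7 ± 28.8 and 31.4 ± 9.89. Dtx1, a regulator of Notch signalling, and Myl9 had 0 reads in every M-EPC library and were at least 9.94-fold and 9.25-fold higher in OVX-EPCs. Shank3, a scaffold protein, had means of 34.1 ± 3.27 and 11.3 ± 3.79 in the female groups and 1 read in M-EPCs, and Sec14l5, a lipid transfer protein, had 25.6 ± 3.33 and 6.78 ± 2.37 and 1 read. Sh2d2a, Ctla2a, Gimap6, Cracd, Neb, Ppp1r16b, Ablim1, Ccdc8, Aldh1a1, Cacna1e, Csgalnact1, Shank3 and Sec14l5 were the others. Their OVX-EPC means lay at 25.6 to 212 and their M-EPC means at 0.299 to 20.1 normalized counts.

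Genes of the order F-EPC > OVX-EPC > M-EPC included Spp1 and 6 genes of sterol and fatty acid synthesis. Cholesterol is built from acetyl-CoA in a chain of enzyme steps, and desaturases introduce double bonds into fatty acids. SREBP factors drive both sets of genes. Spp1 encodes osteopontin, a secreted protein that binds integrins, and lies on chromosome 5 from 104435118 to 104441050. It had 103990.0, 101805 and 97858 normalized counts in F-EPC libraries, 32939.5, 32781 and 32620.1 in OVX-EPC libraries and 5296, 5431 and 5147 in M-EPC libraries, with steps of 3.09 and 6.195-fold. Gm42793 overlaps Spp1 on the same strand, had a fold of 19.2 between F-EPCs and M-EPCs against 19.1 for Spp1, and is uncertain for that reason.

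Scd2, a stearoyl-CoA desaturase, had 48499.8, 48145 and 48589.8 normalized counts in F-EPC libraries, 22815, 23368 and 23069 in OVX-EPC libraries and 7527, 7878 and 7624 in M-EPC libraries. Scd1, its paralog 87591 bases away on chromosome 19, had 5244, 5772 and 5265 in F-EPC libraries, 2403, 2473 and 2339 in OVX-EPC libraries and 186, 150.0 and 177 in M-EPC libraries. The step between the female groups was alike in both, 2.10 and 2.26-fold, while OVX-EPCs stood 3.01 and 14.1-fold above M-EPCs. Fads2, the Δ6 desaturase, had means of 4102 ± 173 in F-EPCs, 1727 ± 68.6 in OVX-EPCs and 353 ± 43.0 in M-EPCs. Cyp51, the lanosterol demethylase, had means of 6325 ± 170.1, 3132 ± 96.5 and 1369 ± 88.5. Its log2 step of 1.01 between the female groups was the smallest among genes with a mean of at least 50 in every group, just inside the screen. Acat2, an acetyl-CoA acetyltransferase, had means of 1813 ± 122, 736 ± 52.8 and 289 ± 26.5, and Hsd17b7, a sterol reductase, had 1682 ± 82.4, 784 ± 58.8 and 347 ± 57.4. Over the 6 genes the step between the female groups lay between 2.02 and 2.46-fold, and that from M-EPCs to OVX-EPCs between 2.26 and 14.1-fold.

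Of 34 sterol and fatty acid genes, a list written after values were seen, 16 had values in all 9 libraries and all 16 had this order. Lss, lanosterol synthase, lay just outside the screen, with means of 2833 in F-EPCs, 1449.7 in OVX-EPCs and 602 in M-EPCs and a log2 difference of 0.97 between the female groups. A list of 19 genes of amino acid supply and the stress response, written in the same way, had 8 genes with values in all 9 libraries, and all 8 had this order, with Phgdh and Chac1 among the 121. Phgdh, the first enzyme of serine synthesis, had 1609.6, 1568 and 1712 normalized counts in F-EPC libraries, 358, 366 and 394 in OVX-EPC libraries and 182, 150.0 and 124 in M-EPC libraries. Chac1, which degrades glutathione and is a target of Atf4, had means of 297 ± 28.1, 43.2 ± 4.68 and 15.1 ± 5.85. In both genes OVX-EPCs lay nearer to M-EPCs, 4.37 and 6.88-fold below F-EPCs and 2.45 and 2.86-fold above M-EPCs. The amino acid response element TGATGNAA, chosen after values were seen, stood in 3 of 17 promoters of this order (17.6%), against 3.83% of all promoters and 3 of 44 (6.82%) in the order M-EPC > OVX-EPC > F-EPC. The 3 genes were Aqp9, Bach2os and Chac1, of which only Chac1 is in the list of amino acid supply and stress response. The promoter of Chac1 (chr2:119350992-119351291, plus strand) shows it in capitals, in reverse on the strand printed and 193 bases before the start.
Chac1: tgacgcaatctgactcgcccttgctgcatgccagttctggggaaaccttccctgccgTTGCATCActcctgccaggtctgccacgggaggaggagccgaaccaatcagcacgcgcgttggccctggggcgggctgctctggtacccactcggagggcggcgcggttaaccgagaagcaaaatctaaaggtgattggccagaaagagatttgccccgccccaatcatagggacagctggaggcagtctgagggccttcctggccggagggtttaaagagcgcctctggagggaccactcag
As above, the match describes letters only.

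Immune genes of this order were Ccl7, Ccl22, Ccr7, Ngp and Slfn4. Ccl7, a chemokine for monocytes, had 1635, 1578 and 1742 normalized counts in F-EPC libraries, 277, 245 and 210.2 in OVX-EPC libraries and 125, 99.7 and 92.1 in M-EPC libraries, the reverse order to that of Ccl5, Cxcl9 and Cxcl10. Ccl22, a chemokine of dendritic cells, had means of 85.0 ± 5.201 in F-EPCs and 25.6 ± 8.28 in OVX-EPCs and 9 reads in all in M-EPCs. Ccr7, a homing receptor of dendritic and T cells, had means of 91.7 ± 12.1 and 22.8 ± 9.40 and 1 read in all in M-EPCs. Ngp, a granule protein of developing neutrophils, had 136, 137 and 160.2 in F-EPC libraries, 62.4, 64.6 and 82.4 in OVX-EPC libraries and 19.99, 45.8 and 38.3 in M-EPC libraries. Of 12 neutrophil markers, 10 had values in all 9 libraries, of which 3 had this order, 4 OVX-EPC > F-EPC > M-EPC and 3 F-EPC > M-EPC > OVX-EPC. Their summed level lay at 766 to 850.3 in F-EPC libraries, at 278 to 376 in OVX-EPC libraries and at 83.8 to 117 in M-EPC libraries, and the part of neutrophils in these results was not tested. Aqp9, a glycerol channel, had means of 149.6 ± 17.1, 42.5 ± 14.3 and 3.13 ± 2.76, the last from 10 reads. Smpd3, Bach2os, Atg9b, Cox6a2, Dgkg and Tmem132b had F-EPC means at 42.3 to 752. Atg9b, an autophagy protein, had means of 185 ± 5.03, 53.3 ± 15.5 and 13.6 ± 2.80, and Tmem132b had 42.3 ± 1.37, 17.2 ± 9.96 and 3.53 ± 2.16. Bach2os is named as antisense to Bach2, and its reads are uncertain where strand was not used.

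**Figure D3:**
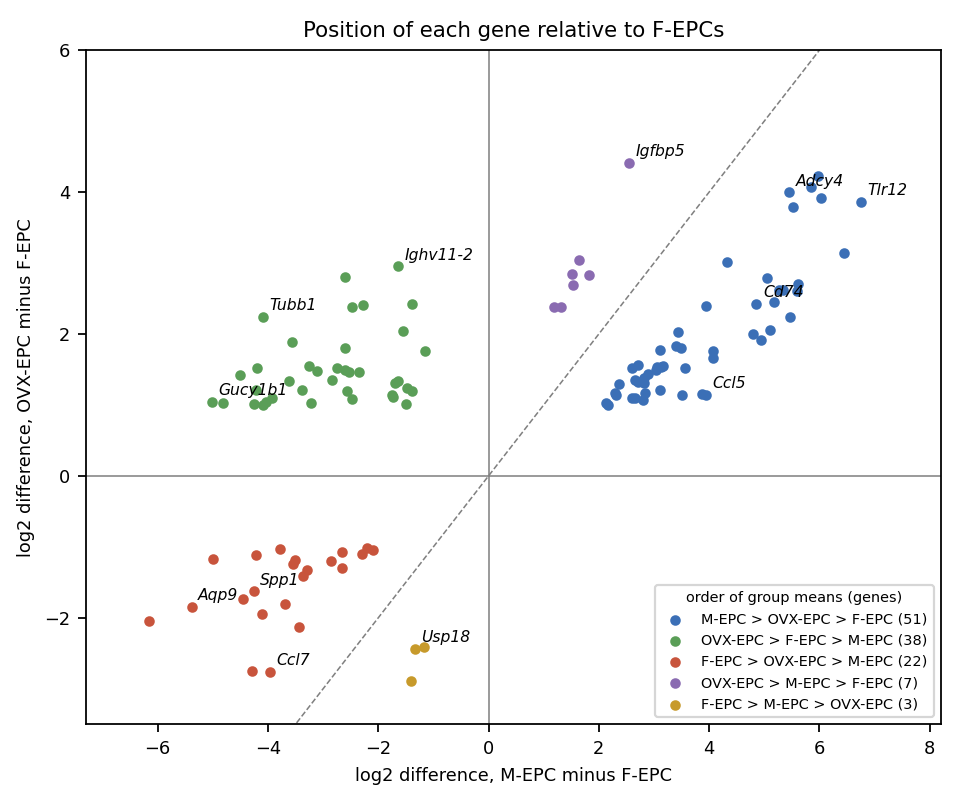
Each point is 1 of the 121 genes, placed by its log2 difference of M-EPCs minus F-EPCs (horizontal) and of OVX-EPCs minus F-EPCs (vertical) and coloured by order. The lower right, where genes of the order M-EPC > F-EPC > OVX-EPC would lie, is empty.

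The order OVX-EPC > M-EPC > F-EPC held Aebp1, Sema7a, Map1b, Ptprf, Prrx1, Sorbs2 and Igfbp5. Aebp1, a collagen-binding matrix protein, had 221, 223 and 216 normalized counts in OVX-EPC libraries, 112, 104 and 74.1 in M-EPC libraries and 42.4, 45.5 and 37.0 in F-EPC libraries. Prrx1, a homeobox factor of mesenchyme, had 127, 140.2 and 135 in OVX-EPC libraries, 68.5, 36.8 and 57.4 in M-EPC libraries and 22.2, 6.78 and 36.0 in F-EPC libraries. The M-EPC and F-EPC libraries of Prrx1 nearly met, and limma called this gene between them with the replicate block and without F-EPC replicate 3, but not in the fit of all 6 libraries without a block. Igfbp5, which binds insulin-like growth factors, had 27.4, 13.8 and 21.8 in OVX-EPC libraries, 2.86, 5.39 and 7.17 in M-EPC libraries and no reads in F-EPCs, so that OVX-EPCs were at least 7.18-fold higher than F-EPCs. Its levels were the lowest of the 7 genes in every group. Sema7a, a membrane-bound semaphorin, had means of 189.7 ± 15.7, 91.6 ± 18.5 and 36.8 ± 11.1 in OVX-EPCs, M-EPCs and F-EPCs. Map1b, a microtubule protein, had 146 ± 16.7, 64.8 ± 9.22 and 23.0 ± 9.34, and Ptprf, a receptor phosphatase, had 136 ± 22.5, 67.3 ± 13.3 and 19.6 ± 9.10. Sorbs2, a cytoskeletal adaptor, had means of 79.7 ± 6.04, 30.5 ± 9.95 and 9.51 ± 4.96. Some stromal markers had this order too. Of 12, 6 had values in all 9 libraries and 5 of these had this order. Among the 5, Igfbp5 is itself a gene of the order, and Des was at 0 in M-EPCs and F-EPCs, so the order of these groups is arbitrary. Col1a1 was not listed for M-EPCs with F-EPCs, and its reads per library overlapped there, 17 to 45 against 4 to 28. Col1a2 and Pdgfra were listed in both comparisons with F-EPCs but not for M-EPCs with OVX-EPCs. Lum had the order OVX-EPC > F-EPC > M-EPC. The summed level of the 6 lay at 640.4 to 815 in OVX-EPC libraries, at 343 to 388 in M-EPC libraries and at 111 to 157 in F-EPC libraries. Lum was at 0 in a library of M-EPCs and of F-EPCs, and the part of stromal cells in these results was not tested.

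The order F-EPC > M-EPC > OVX-EPC held 3 genes. Usp18, which removes ISG15 from proteins and restrains type I interferon signalling, had 694, 646 and 633 normalized counts in F-EPC libraries, 234, 291 and 256 in M-EPC libraries and 134, 102 and 128 in OVX-EPC libraries. Slfn1, a schlafen protein of immune cells, had 868, 804 and 788 in F-EPC libraries, 385, 358 and 343 in M-EPC libraries and 139.9, 157 and 163 in OVX-EPC libraries. Chil3, the chitinase-like protein Ym1 of myeloid cells, had 140.4, 138 and 153 in F-EPC libraries, 48.5, 42.2 and 75.3 in M-EPC libraries and 13.2, 27.7 and 17.0 in OVX-EPC libraries. The steps were of like size, between 2.27 and 2.60-fold from M-EPCs to F-EPCs and between 2.14 and 2.87-fold from OVX-EPCs to M-EPCs.

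Among genes of the 121 that lay within 200000 bases of each other, 17 of 22 pairs had the same order, and 3 of the pairs overlapped. Of the 17, 6 were pairs among 4 MHC class II genes, and the share that chance would give was not tested. The others were pairs among the Gbp genes, Cxcl9 and Cxcl10, Serpina3f and Serpina3g, Iigp1 and BC023105, Scd1 and Scd2, Asgr2 and Mgl2 and the overlapping genes. Alox12 differed in order from its neighbours Asgr2 and Mgl2. The schlafen genes Slfn1, Slfn4 and Slfn14 on chromosome 11 had 3 different orders, with 52516 bases between Slfn1 and Slfn4 and 84894 between Slfn4 and Slfn14. Slfn4 had 543, 655 and 722 normalized counts in F-EPC libraries, 197, 134 and 170.5 in OVX-EPC libraries and 24.7, 49.4 and 38.3 in M-EPC libraries. Slfn14 had 47.3, 63.7 and 52.1 in OVX-EPC libraries and 9.09, 2.91 and 11.4 in F-EPC libraries. Thus F-EPCs were highest for Slfn1 and Slfn4 and OVX-EPCs for Slfn14, and the lowest group was OVX-EPCs for Slfn1 and M-EPCs for the other two.

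The place of the middle group was measured on the log2 scale from 0% at the lowest to 100% at the highest group. In the order M-EPC > OVX-EPC > F-EPC the median place of OVX-EPCs was 49.0%, from 29.0% for Ccl5 to 73.5% for Adcy4, and 32 of the 51 genes lay under 50%. MHC class II genes lay between 47.5% and 55.1% and the GTPases between 32.6% and 59.1%. In the order F-EPC > OVX-EPC > M-EPC the median place of OVX-EPCs was 58.9%, from 30.4% for Ccl7 to 76.5% for Scd1. In the order OVX-EPC > F-EPC > M-EPC the median place of F-EPCs was 64.5%, from 35.7% for Ighv11-2 to 82.8% for Gucy1b1. Platelet genes lay between 48.1% and 82.8% and immunoglobulin and B-cell genes between 35.7% and 64.3%. On the linear scale the medians were 23.8%, 32.4% and 33.9%, and every gene lay under 50%, as a fold of at least 2 from the middle to the highest group forces. The place moved with the size factors. With TMM factors recomputed on genes listed in at least 2 comparisons, the medians for OVX-EPCs were 36.6% in the first order and 46.3% in the second. With RLE factors they were 38.7% and 48.6%. All of those genes had passed the screen, while both methods take most genes as unchanged. These factors may therefore be off, and this was not tested.

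**Figure D4:**
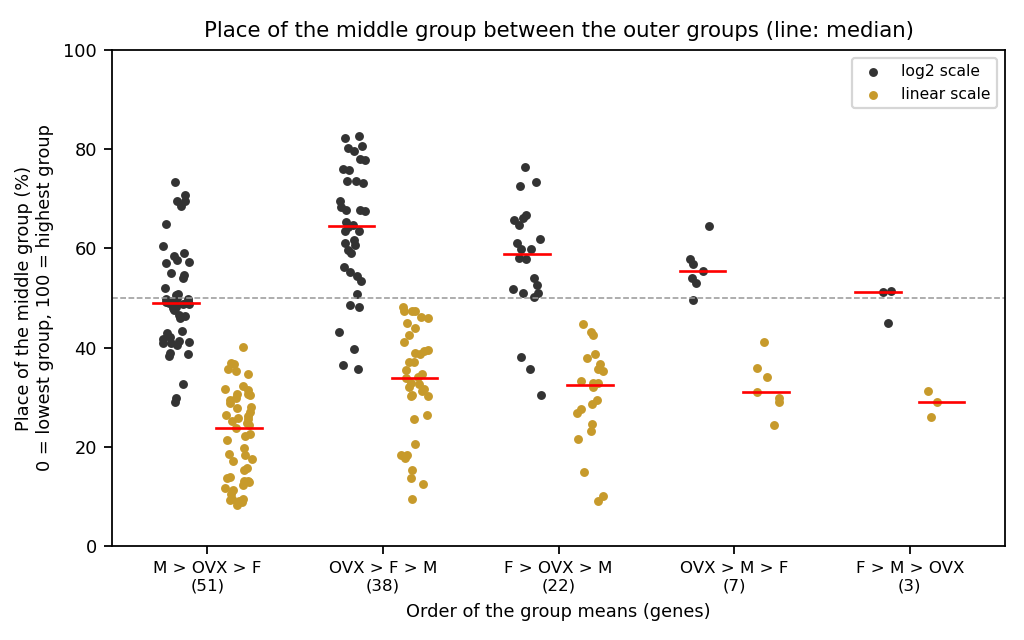
Each point is a gene, and the vertical axis gives the place of its middle group from 0% at the lowest to 100% at the highest group, on the log2 and on the linear scale, by order, with lines at the medians. On the linear scale every gene lies under 50%, and on the log2 scale the medians run from 49.0% to 64.5%.

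The label of the cells was checked against 13 endothelial markers, of which 6 had values in all 9 libraries and none was among the 121 genes. Of the 6, 4 had the order OVX-EPC > F-EPC > M-EPC, and their summed level was 998 to 1114 normalized counts in M-EPC libraries, 3476 to 3567 in F-EPC libraries and 4294 to 4609.9 in OVX-EPC libraries, most of it Vwf in the female groups. Pecam1, which encodes the CD31 used in the sort, had means of 487 ± 3.64 in M-EPCs, 364 ± 8.32 in OVX-EPCs and 157 ± 7.56 in F-EPCs. Kdr, a receptor of VEGF, had means of 65.0 ± 6.65, 361 ± 37.4 and 343 ± 23.9. Vwf, von Willebrand factor, which megakaryocytes also make, had 232 ± 18.3, 3385 ± 198 and 2351 ± 53.1. Tie1, a receptor of endothelial cells, had 18.9 ± 2.69, 77.3 ± 13.4 and 47.0 ± 11.1, and Esam, an adhesion molecule, had 7.74 ± 1.26, 79.5 ± 15.2 and 46.4 ± 1.65. Ly6a, which encodes the Sca-1 used in the sort, was highest in F-EPCs, with 259 ± 48.6, 232 ± 27.5 and 575 ± 27.3. The levels of these markers thus differed between the groups, and the part of such differences in the cells in the results above was not tested. Cdh5, Tek, Cd34, Eng, Emcn, Cldn5 and Nos3 were listed in no comparison and have no value here.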

How the data were processed

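RNA was sequenced from 3 libraries per group. By the study's methods, reads were aligned with HISAT2, quantified with Cufflinks tools and compared with DESeq, and the submitters' processing notes name the build mm10. The authors deposited 1 table per comparison, holding the genes past their screen on FDR and a 2-fold change with 1 column of normalized counts per library, a signal equal to reads divided by a size factor. Columns with the authors' own fold changes and p-values were not used. Whole reads were recovered for 100% of values (tolerance 0.01), and a shared gene had the same reads in each table. Since the values are not raw counts, limma 3.58.1 (R 4.3.3) on log2(value + 1), with Benjamini-Hochberg adjustment and no filter on low values, was the main test, and edgeR 4.0.16 on the recovered reads called 2089, 1315 and 810 genes of 2093, 1317 and 811 (M-EPC and F-EPC, M-EPC and OVX-EPC, F-EPC and OVX-EPC). DESeq2 1.42.0 on the same reads called all of them. On simulated data of these sizes limma recovered 199, 200 and 200 of 200 changed genes and made 6, 3 and 4 false calls. Libraries of M-EPCs and F-EPCs with the same replicate number had weak correlations of their deviations over the 121 genes, of 0.12, 0.14 and 0.10. F-EPC 1 and OVX-EPC 2, of unlike numbers, had 0.21. Neither the labels nor these values establish a pairing, and the blocked fit is given only as an alternative where it changes a call. A fold is a ratio of mean normalized counts. Each comparison lists only genes past its screen, so summed marker levels cover only markers that passed it in at least 2 comparisons. The depth of whole libraries is unknown. The genes and lists were chosen with earlier results of these data known, and the gene groups by role after values were seen. Per order, the 8 genes with the highest mean, the 8 with the largest smaller step and all members of the cell type and pathway lists were to be named, as was every gene of an order of 10 or fewer, and the values of further genes were given after they were seen. Python 3.11.15 and matplotlib 3.10.9 were used for the orders and figures. Annotation came from GENCODE for 116 genes and from RefSeq alone for 4, and Gm49967 was not placed. Results that need certain withheld genes are not reported here.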

Additional observations from a re-analysis of the deposited data

How the results depend on the processing

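Each of the 121 genes kept its order when OVX-EPC values were taken from the comparison with M-EPCs and with common, TMM or RLE size factors. A shared gene had the same reads in each comparison and the rescaling ratio ran only from 0.9639 to 0.9645, so the first 2 settings could hardly change an order. TMM and RLE factors shifted the median log2 difference of a pair by at most 0.42, below the smallest step of 0.99. These settings too say little about stability. Since the libraries of the 3 groups do not overlap for any of these genes, using medians, leaving out a library or adding the replicate block could not change an order, and says nothing about stability. The sizes of the steps (median log2 difference) moved more. With a pseudocount of 0.1 the lower step of OVX-EPC > F-EPC > M-EPC was 3.38, and with values of 3 reads or fewer set to 3 reads it was 2.19, against 2.61. TMM and RLE factors were recomputed only on genes past the screen in at least 2 comparisons, and may be off for that reason. With TMM factors, upper and lower steps were 2.02 and 1.23 for M-EPC > OVX-EPC > F-EPC and 1.74 and 1.63 for F-EPC > OVX-EPC > M-EPC, with middle places of 36.6% and 46.3%. The upper step was 0.93 for OVX-EPC > F-EPC > M-EPC and 0.85 for OVX-EPC > M-EPC > F-EPC, and the lower step 1.58 for F-EPC > M-EPC > OVX-EPC. With RLE factors the same values were 1.89, 1.25, 1.72 and 1.75, 38.7% and 48.6%, 0.95, 0.98 and 1.45, and the upper step of F-EPC > M-EPC > OVX-EPC was 1.54. Leaving out 1 library gave lower steps between 2.57 and 2.90 for OVX-EPC > F-EPC > M-EPC and between 1.36 and 1.76 for OVX-EPC > M-EPC > F-EPC. The cause was not tested. Leaving out 1 library gave between 1864 and 1913, 1208 and 1235, and 724 and 755 limma calls in the 3 comparisons. Of the 121 genes, as few as 119, 114 and 109 were then called. The last was without OVX-EPC replicate 2, where F5, Gucy1b1 and Tbxa2r were among those lost.

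Same-numbered libraries of F-EPCs and OVX-EPCs had correlations of their deviations of -0.10, -0.09 and 0.05, and those of M-EPCs and OVX-EPCs -0.06, -0.04 and 0.08. In every comparison the main fit took the numbers as names only. The replicate block gave 2003 calls for M-EPCs with F-EPCs, where Prrx1 was gained, 1288 for M-EPCs with OVX-EPCs and 781 for F-EPCs with OVX-EPCs, where BC023105 was lost. It changed no other call among the 121 genes. Low counts limit the order OVX-EPC > F-EPC > M-EPC most, where 11 of 38 genes had 9 reads or fewer in the lowest group.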

Other observations

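Basophil and mast cell markers are absent from the 121 genes but had values in all 9 libraries for 8 of 10 genes, all of the order OVX-EPC > F-EPC > M-EPC. Their summed level was 852 to 1016 normalized counts in OVX-EPC libraries, 592 to 621 in F-EPC libraries and 33.5 to 60.2 in M-EPC libraries. All 8 were listed in both comparisons with M-EPCs, so the distance of the sum from M-EPCs follows from the selection. Cma1 and Tpsb2 were listed in no comparison and have no value here.

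Of 13 markers of monocytes and macrophages, 3 were listed in any comparison and 2 had values in all 9 libraries, 1 of the order OVX-EPC > F-EPC > M-EPC and 1 of F-EPC > OVX-EPC > M-EPC. Of 7 dendritic cell markers, 3 had values in all 9 libraries, 2 of the first of these orders and 1 of the second. Of 19 angiogenic factors and receptors, 4 had values in all 9 libraries, 3 of the order OVX-EPC > F-EPC > M-EPC and 1 of M-EPC > F-EPC > OVX-EPC, and none was among the 121 genes. Of 31 extracellular matrix genes, 11 had values in all 9 libraries, and Spp1 was the only one of these among the 121 genes, while 5 had the order OVX-EPC > M-EPC > F-EPC. Of these 5, Timp1 and Bgn lie on chromosome X, and Timp1 was listed in all 3 comparisons and left out of the 121 genes for that reason alone.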
